A study of Mus musculus with 4 samples.

Results

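The genes studied here encode the enzymes that build cholesterol and fatty acids from acetyl-CoA, together with the proteins that regulate them. Of 32 listed genes, 25 had at least 1 probe set whose platform annotation names that gene alone, 37 probe sets in all of the 12488 on the array. The other 7, Acat2, Pmvk, Srebf2, Scap, Stard4, Acaca and Fads2, were not analysed here. A filter on dim genes left 24 of the 25 for testing, among 5582 genes tested in all. Insig1, which encodes an endoplasmic reticulum anchor of the SREBP escort complex, did not pass it, with signals of 2.8 and 1.8 in dexamethasone and 3.0 and 0.2 in medium. RNA was measured on 4 single-sample Affymetrix arrays of CD4+CD8+ double-positive thymocytes, which are developing T cells of the thymic cortex, sorted with microbeads from female C3H/HeN mice aged 4 weeks. Cells of 2 arrays received 1e-07 M dexamethasone in PBS, a synthetic glucocorticoid, and cells of the other 2 received medium and 0.1% PBS, all for 3 h at 5.0e+06 cells per ml in 3 ml. Both groups were cultured cells of the same strain, sex and age. The series describes the 2 arrays of a group as technical replicate extracts, so the p-values measure only the spread between extracts.

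Cholesterol synthesis starts with the mevalonate pathway, which turns acetyl-CoA into isoprenoid units. These are joined into squalene, which is closed into a sterol ring and trimmed step by step to cholesterol. The genes of this chain share transcription factors of the SREBP family, which stay in the endoplasmic reticulum while sterols are plentiful and are cut free by proteases when sterols run low. SREBPs also act on fatty acid synthesis genes. Proliferating T cells need newly made lipids for their membranes.

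Signals are MAS5 values on a linear scale, and differences are dexamethasone minus medium in log2(signal + 1), a scale that understates the change of dim genes. A gene is said to have risen or fallen only where its limma p, adjusted by the Benjamini-Hochberg method over all 5582 genes, was under 0.05. Rises and falls are relative to medium at 3 h. The series holds no array from before culture, so change over time was not measured. Median signals were 22.8 and 21.9 on the dexamethasone arrays and 21.7 and 21.1 on the medium arrays. A signal of 14, the highest of 19 probe sets for bacterial and yeast transcripts, was taken as background. All 9 double-positive markers measured, among them Cd4 and Cd8a, lay between 282.3 and 2929.3. Of these, Cd8b1, a chain of the CD8 receptor, fell (-0.33, limma adjusted p = 0.0466), and Satb1, a chromatin organiser, rose (0.43, limma adjusted p = 0.0315), with a difference of -0.03 when arrays were scaled to the hybridization controls. The part of these changes in the results on the synthesis genes was not tested. Among markers of other cells, 6 of 7 for thymic epithelium and stroma, 3 of 7 for macrophages and dendritic cells, 1 of 5 for B cells and 1 of 3 for erythroid cells stayed at background on every array. The brightest of the others were Tfrc, the transferrin receptor, which dividing cells of many kinds express, at 189.5 and 241.3 with dexamethasone against 219.6 and 192.7 in medium, the globin gene Hba-a1 at 112.1 and 104.0 against 94.3 and 99.9, and the B cell receptor component Cd79b at 96.5 and 91.7 against 85.5 and 89.2. Summed over the stromal list, signals were 57.0 and 57.4 with dexamethasone and 29.2 and 30.4 in medium. The 1 gene of that list above background was Col1a1, a collagen gene, with signals of 33.5 and 38.2 with dexamethasone against 16.5 and 18.4 in medium, and the part of such cells in the results below was not tested. Sums for the B cell list were 162.6 and 139.0 with dexamethasone against 133.3 and 136.1 in medium, and those for the macrophage list were 101.0 and 82.7 against 98.4 and 109.4. The erythroid sums were 304.4 and 347.5 with dexamethasone against 315.9 and 298.4 in medium. The treatment check held its direction on every array: Fkbp5, a known glucocorticoid target, had signals of 2381.8 and 2152.1 with dexamethasone against 660.0 and 589.9 in medium. Zfp36l2, Ddit4, Il7r and Txnip, from the same list of glucocorticoid-induced genes, rose by 1.84, 1.75, 1.40 and 1.08 on the log2 scale. All 7 tested genes of that list were higher with dexamethasone and 5 rose, beside 1.88% of all genes. The list was drawn up with earlier results of these data known, so it is not an independent check. Tsc22d3, another known target, was at background on all arrays.

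After 3 h with dexamethasone, 5 genes of the cholesterol chain had fallen relative to medium, and none of the 16 tested rose. The 5 were Hmgcs1 and Fdps of the mevalonate branch and Sqle, Msmo1 and Dhcr7 of the sterol branch, with falls of 1.59-fold to 1.90-fold. Of all genes tested, 3.91% changed, 2.02% fell and 1.88% rose. Each gene was represented by its brightest probe set. All 16 tested genes of the chain had a lower mean with dexamethasone, beside 49.9% of all genes. In 15, both dexamethasone arrays lay below both medium arrays, beside 25.7% of all genes. The median log2 difference was -0.56 for the 16 genes and 0.00 for all genes. A difference of -0.5 or lower was seen in 9 of the 16, beside 4.16% of all genes. Without Hsd17b7, which was at background in both groups, this was 8 of 15 genes, 14 of the 15 did not overlap between groups, and the median was -0.51. The members were chosen with earlier results of these data known, so these counts are not an independent check. On their brightest probe sets, the 7 tested fatty acid genes had a median of -0.10, with 1 rise and 0 falls. The other probe set of Scd2 differed by -0.86 and passed when probe sets were tested as separate features (limma adjusted p = 0.00358). The difference between the chain and the fatty acid genes was not tested.

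**Figure D1:**
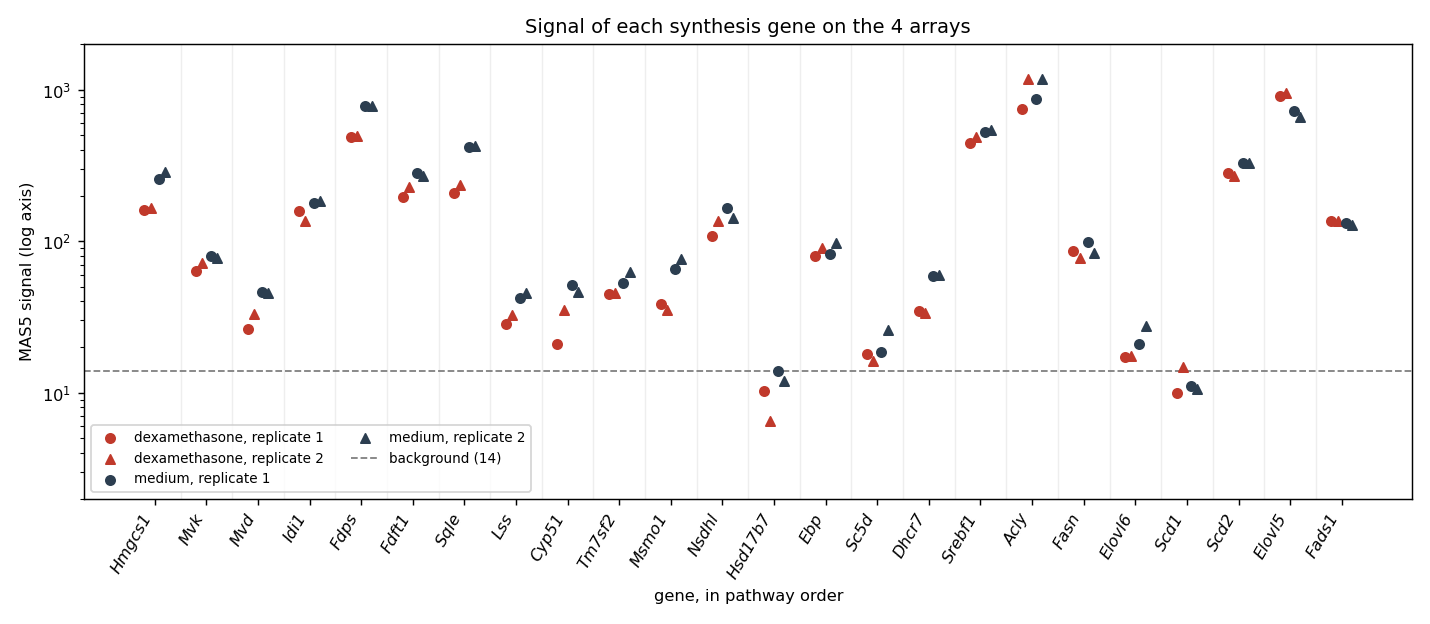
MAS5 signal (log axis) of the 24 tested synthesis genes on the 4 arrays, in pathway order, with dexamethasone in red and medium in dark blue and the background of 14 as a dashed line. In the cholesterol chain, from Hmgcs1 to Dhcr7, the red points lie below the dark ones in every gene but Ebp, where the groups overlap, while for Elovl5 they lie above.

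Hmgcs1 encodes the cytosolic synthase that makes HMG-CoA, a building block of the mevalonate pathway. Its signal was 159.5 and 165.3 with dexamethasone against 256.3 and 286.3 in medium, means of 162 ± 4.10 and 271 ± 21.2 (SD, n = 2). The groups were well apart, and the log2 difference was -0.73 ± 0.09 (SE, limma adjusted p = 0.0102). Fdps, the farnesyl diphosphate synthase, was the brightest gene of the chain, at 486.8 and 496.0 with dexamethasone against 780.8 and 780.9 in medium. The replicates of each group nearly coincided, and the log2 difference was -0.67 ± 0.06 (limma adjusted p = 0.00415). Its other bright probe set had 255.3 and 255.9 with dexamethasone against 413.6 and 459.4 in medium, a log2 difference of -0.77. By its name that probe set can match a family of similar sequences. The 2 remaining Fdps probe sets never left background, and with the mean over all Fdps probe sets the difference was -0.28 (limma adjusted p = 0.334).

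The other mevalonate genes were lower without passing. Mvd, the decarboxylase that yields isopentenyl diphosphate, had 26.3 and 33.3 with dexamethasone against 45.9 and 45.7 in medium, a log2 difference of -0.61 with a 95% interval of -1.04 to -0.18. Idi1, the isomerase of that product, had 157.7 and 135.0 with dexamethasone against 179.4 and 185.0 in medium (-0.32). The kinase gene Mvk had the smallest difference of the branch, with 63.7 and 72.1 against 79.2 and 77.3 (-0.20, interval -0.50 to 0.09). Its dimmer probe set, which can match a family of similar sequences, differed by -0.49 and also did not pass. In each of these genes the 2 groups did not overlap, and adjusted p lay between 0.127 and 0.409.

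In the sterol branch, Sqle and Msmo1 had the largest differences of all members as processed here, an order that other settings changed. Sqle encodes squalene epoxidase, a rate-limiting oxygenation step, and had 208.7 and 233.5 with dexamethasone against 416.7 and 424.2 in medium. Its log2 difference was -0.93 ± 0.08 (1.90-fold lower, limma adjusted p = 0.00357), rank 37 from the lowest of the 5582. Msmo1, which oxidises the methyl groups at carbon 4 of the sterol ring, had signals of 38.5 and 35.0 against 65.1 and 76.5 in medium. Its log2 difference was -0.92 ± 0.15 (limma adjusted p = 0.0283). Dhcr7 encodes the reductase that makes cholesterol from its direct precursor, and it stood at 34.8 and 33.4 with dexamethasone against 58.7 and 59.6 in medium. The difference was -0.78 ± 0.14 (limma adjusted p = 0.0368).

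Between these steps the other 8 sterol genes were lower but did not pass. Fdft1, the squalene synthase, came closest, with 196.8 and 229.4 with dexamethasone against 281.9 and 269.0 in medium (log2 difference -0.37 ± 0.10, limma adjusted p = 0.0963). Lss, which closes squalene epoxide into lanosterol, had 28.2 and 32.8 against 42.3 and 45.3 (-0.51). Cyp51, the lanosterol demethylase, had a large but scattered difference. Its signals were 21.1 and 35.2 with dexamethasone against 51.1 and 45.9 in medium, and the 95% interval of -0.81 ran from -1.42 to -0.19. Tm7sf2, a sterol reductase, had 44.8 and 45.6 with dexamethasone against 52.9 and 62.8 in medium (-0.34). Its other probe set was at background in both groups.

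Nsdhl and Hsd17b7 act with Msmo1 in removing methyl groups from the ring. Nsdhl had 108.7 and 135.0 with dexamethasone against 166.5 and 143.1 in medium on its brightest probe set (-0.35). Its other probe sets gave -0.29 and -0.03. Hsd17b7 was at background in both groups, so no fold is given. Ebp, the isomerase of the late ring, showed the smallest difference of the chain, with 79.8 and 90.1 against 82.0 and 97.8 (-0.08, interval -0.40 to 0.24). That interval lies wholly above the interval of Sqle, -1.13 to -0.73. Sc5d, the desaturase before Dhcr7, was dim, with 17.9 and 16.3 against 18.6 and 25.9 (-0.34, interval -0.95 to 0.26). On its other probe set, which can match a family of similar sequences, the groups overlapped, with 12.6 and 10.2 against 11.9 and 14.5 (-0.20).

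**Figure D2:**
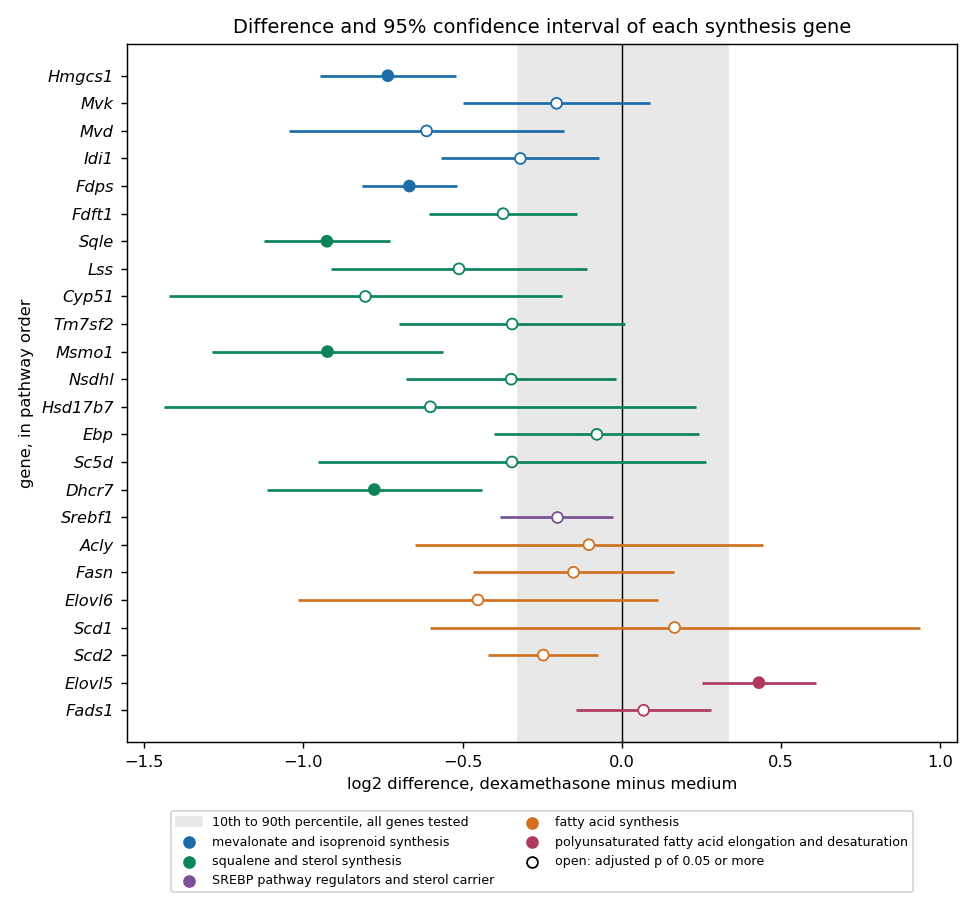
Log2 difference, dexamethasone minus medium, of each tested synthesis gene in pathway order, with its 95% confidence interval from limma. Filled points passed at adjusted p under 0.05, and the grey band spans the 10th to 90th percentile of all 5582 genes, -0.33 to 0.33. The 5 filled points of the cholesterol chain lie left of the band and Elovl5 lies right of it.

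Both dexamethasone arrays stood low. Relative to each gene's own mean, the median of the 16 genes was -0.34 and -0.20 on the dexamethasone arrays and 0.28 and 0.30 on the medium arrays, while for all genes these medians lay between -0.00 and 0.01. The first dexamethasone array thus stood farther from the medium arrays than the second. Actin control probe sets at the 3′ and 5′ ends of the transcript gave a signal ratio, a measure of RNA integrity, of 1.40 and 1.24 with dexamethasone and 1.15 and 1.06 in medium. The same ratio for Gapdh was 0.904 and 0.823 with dexamethasone and 0.838 and 0.846 in medium, so these groups overlapped. The part of RNA integrity in these differences was not tested. With a single array left out the 5 calls thinned to 0 to 2, and none were left without medium replicate 2, where Sqle had an adjusted p of 0.0556 in limma and 7 of 24 members were lower at an unadjusted p under 0.05, beside 6.84% of all genes. Sqle kept its call without any other array, Fdps kept it without either dexamethasone array but not without a medium array (limma adjusted p = 0.0611 and 0.0627), and Hmgcs1, Msmo1 and Dhcr7 lost it with each array left out, at adjusted p from 0.0565 to 0.226. Without the filter on dim genes Msmo1 and Dhcr7 lost their calls, and without limma's variance trend 0 members passed, with 13 of 24 lower at an unadjusted p under 0.05, beside 9.05% of all genes.

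**Figure D3:**
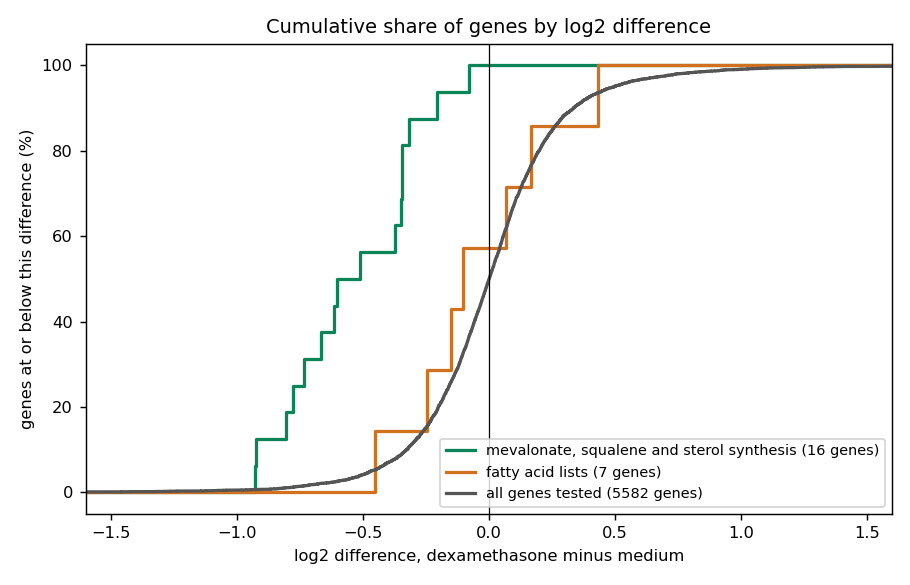
Cumulative share of genes (%) by log2 difference, dexamethasone minus medium, for the 16 cholesterol chain genes, the 7 fatty acid genes and all 5582 genes tested. The chain reaches 100% before 0, at -0.08, whereas the fatty acid curve runs near that of all genes. Each gene is shown by its brightest probe set, at -0.25 for Scd2, whose other probe set differed by -0.86.

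Promoter sequence is shown for members that changed and had a single promoter window. SREBP-responsive genes of this chain are known to carry sterol regulatory elements with neighbouring CCAAT boxes, bound by NF-Y, and GC boxes, bound by Sp1. The windows come from RefSeq (build GRCm38.p6) and run from 250 bases before to 50 after an annotated gene start. Of the 32 listed genes 25 had a window, among them 4 of the 6 that changed: Hmgcs1, Msmo1, Dhcr7 and Elovl5. These 25 are not the same genes as the 25 with a probe set. Acat2, Pmvk, Srebf2, Scap, Acaca and Fads2 had a window but were not analysed for expression, and Insig1 was too dim to test. Sqle, Fdps, Fdft1, Scd1, Scd2 and Fads1 had a probe set but no window. Capitals mark matches to TCACNCCAC, a core of the sterol regulatory element, and to CCAAT, on either strand. The first 2 sequences belong to genes that fell (Hmgcs1, chr13:119690101-119690400, plus strand, and Msmo1, chr8:64733529-64733828, minus strand), and the third to the gene that rose (Elovl5, chr9:77917115-77917414, plus strand).
Hmgcs1: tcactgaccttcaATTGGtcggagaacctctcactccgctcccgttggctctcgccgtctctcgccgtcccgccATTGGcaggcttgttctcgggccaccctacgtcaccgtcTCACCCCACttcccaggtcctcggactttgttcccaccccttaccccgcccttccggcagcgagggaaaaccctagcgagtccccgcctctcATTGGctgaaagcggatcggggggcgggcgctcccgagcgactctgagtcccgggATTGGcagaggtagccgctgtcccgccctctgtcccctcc
Msmo1: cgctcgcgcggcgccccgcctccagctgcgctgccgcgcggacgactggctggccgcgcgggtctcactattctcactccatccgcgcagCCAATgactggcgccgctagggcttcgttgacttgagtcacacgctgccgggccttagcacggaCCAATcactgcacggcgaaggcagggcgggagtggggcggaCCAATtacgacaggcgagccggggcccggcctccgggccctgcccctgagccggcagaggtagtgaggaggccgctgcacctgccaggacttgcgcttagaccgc
Elovl5: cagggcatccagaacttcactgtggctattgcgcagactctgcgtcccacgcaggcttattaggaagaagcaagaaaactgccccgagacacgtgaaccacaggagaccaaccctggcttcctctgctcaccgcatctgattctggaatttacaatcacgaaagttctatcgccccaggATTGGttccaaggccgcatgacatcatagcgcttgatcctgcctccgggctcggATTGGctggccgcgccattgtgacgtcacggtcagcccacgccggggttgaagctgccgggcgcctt

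The Hmgcs1 window held the element core once, as TCACCCCAC from base 114 counted from the printed 5′ end, with 4 CCAAT boxes, all on the opposite strand, and 3 GC boxes (GGGCGG). The Msmo1 window held 3 CCAAT boxes, from bases 91, 155 and 196, and 2 GC boxes, while that of Elovl5 held 2 CCAAT boxes and no GC box. None of these matches overlapped a match to another motif searched. Over the 25 members with a window, 1 gene held the core TCACNCCAC, beside 1.44% of all 27025 genes in the promoter table and 1.41% of protein-coding genes. CCAAT was found in 20 of the 25 (80.0%), beside 41.1% of all genes and 42.3% of protein-coding genes. GGGCGG was likewise in 20 of the 25, beside 38.2% of all genes and 49.2% of protein-coding genes, and the E-box CACGTG in 6 (24.0%), beside 8.09% and 8.91%. AGAACA, the core hexamer of a glucocorticoid response element, was in 6 of the 25 (24.0%), beside 21.3% of all genes and 18.5% of protein-coding genes. It occurred in the Hmgcs1 window and in 1 of the 3 Dhcr7 windows. Dhcr7, with several windows, is not printed. No Dhcr7 window held the element core, and only 1 of the 3 held CCAAT, as 2 boxes. These are letter matches on both strands and do not show binding.

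Of the regulators, 1 could be tested. Srebf1, which encodes SREBP-1, was bright and slightly lower, with 442.9 and 483.4 with dexamethasone against 525.5 and 541.4 in medium. The groups did not overlap, but the log2 difference of -0.20 ± 0.07 did not pass (limma adjusted p = 0.190). Of 7 other genes of SREBP processing listed, 2 were tested. Mbtps1, the site-1 protease that makes the first cut in SREBPs, rose, with 436.0 and 486.2 with dexamethasone against 316.3 and 333.9 in medium. Its log2 difference was 0.50 ± 0.08 (limma adjusted p = 0.0285), opposite in sign to the chain genes, but 0.05 when arrays were scaled to the hybridization controls. This call was also lost with any array left out (adjusted p from 0.0653 to 0.199) and with arrays centred on their medians (adjusted p = 0.0588). Erlin1 differed by 0.56 ± 0.34 and did not pass.

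Genes of fatty acid synthesis gave no call on their brightest probe sets. Of 5 tested, 0 passed in limma, beside 3.91% of all genes, and 1 was at an unadjusted p under 0.05, beside 19.9%. Acly, which makes cytosolic acetyl-CoA from citrate for both pathways, was the brightest member and the most variable, with 748.5 and 1177.6 with dexamethasone against 870.8 and 1167.7 in medium. The groups overlapped, and the interval of -0.10 ran from -0.65 to 0.44. Fasn, the fatty acid synthase, had 86.1 and 77.3 against 98.8 and 83.3, also overlapping (-0.15, interval -0.47 to 0.16). Elovl6, an elongase of saturated chains, was near background, with 17.2 and 17.4 with dexamethasone against 20.9 and 27.6 in medium (-0.45 ± 0.23). Its other probe set, also near background, differed by -0.41 and did not pass. Scd1, a desaturase, was at background in medium and at 10.0 and 14.8 with dexamethasone, so its level cannot be ranked.

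Scd2, another desaturase of the same family, gave a different answer on each of its 2 probe sets. On the probe set that stands for the gene because it was the brighter, signals were 282.7 and 268.6 with dexamethasone against 327.1 and 326.9 in medium (-0.25 ± 0.07, limma adjusted p = 0.127). By its name this probe set can match a family of similar sequences. The other probe set had almost the same signal in medium, 325.3 and 327.0, but 175.9 and 183.6 with dexamethasone. Its log2 difference was -0.86 ± 0.08, which passed when all 6701 probe sets were tested as separate features (limma adjusted p = 0.00358). Scd2 would then be a 6th member called lower. With the mean over its probe sets Scd2 also passed (-0.55, limma adjusted p = 0.0144).

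Elovl5, which elongates polyunsaturated fatty acids, was the 1 member that rose, with 913.9 and 948.2 with dexamethasone against 726.6 and 655.3 in medium. The log2 difference was 0.43 ± 0.07 (1.35-fold, limma adjusted p = 0.0325), but -0.03 when arrays were scaled to the hybridization controls, and its call was lost with any array left out (adjusted p from 0.111 to 0.217). Fads1, the desaturase that works beside it, had 136.7 and 136.5 with dexamethasone against 132.6 and 127.8 in medium. That difference of 0.07 did not pass, and its interval ran from -0.14 to 0.28.

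Each of 6 lists for neighbouring lipid pathways gave 0 calls in limma, beside 3.91% of all 5582 genes called. At that share, lists this short can hold 0 calls without differing from all genes. Their counts at an unadjusted p under 0.05 stand beside 19.9% (1111) of the 5582 genes. Genes of sterol efflux and the liver X receptors had 0 of 6 past the threshold, and 0 at an unadjusted p under 0.05. The largest differences were 0.32 for Lpcat3, a phospholipid acyltransferase, and -0.20 for Rxra, a partner receptor. Sterol uptake, transport and storage had 0 of 9 past the threshold and 1 at an unadjusted p under 0.05, with Lipa, the lysosomal lipase that frees cholesterol from its esters, at -0.42 and the lipoprotein receptor Scarb1 at -0.38. In the isoprenoid branch and protein prenylation, 0 of 6 passed and 3 were at an unadjusted p under 0.05. Rabggta and Rabggtb, the subunits of the enzyme that prenylates Rab proteins, had -0.60 and -0.38. Rabggta passed with the replicate block (limma adjusted p = 0.0443) and with the stricter filter (0.0488), but not as reported (0.0627).

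Supply of acetyl-CoA, citrate and NADPH had 0 of 8 past the threshold and 4 at an unadjusted p under 0.05, in both directions. Idh1, the cytosolic isocitrate dehydrogenase, had -0.43 and Pgd of the pentose phosphate pathway 0.34. Of 15 fatty acid oxidation genes 0 passed and 1 was at an unadjusted p under 0.05, with Cpt1a, which admits fatty acids to mitochondria, at -0.32 and Eci1 at 0.38. Of 13 genes for acyl-CoA, glycerolipid and phospholipid synthesis 0 passed and 5 were at an unadjusted p under 0.05. Chka, the choline kinase, had 0.84 ± 0.22, with 69.7 and 106.1 with dexamethasone against 52.2 and 43.4 in medium, and Lpin1, a phosphatidate phosphatase, -0.57. The medians of these 6 lists lay between -0.12 and 0.03.

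**Figure D4:**
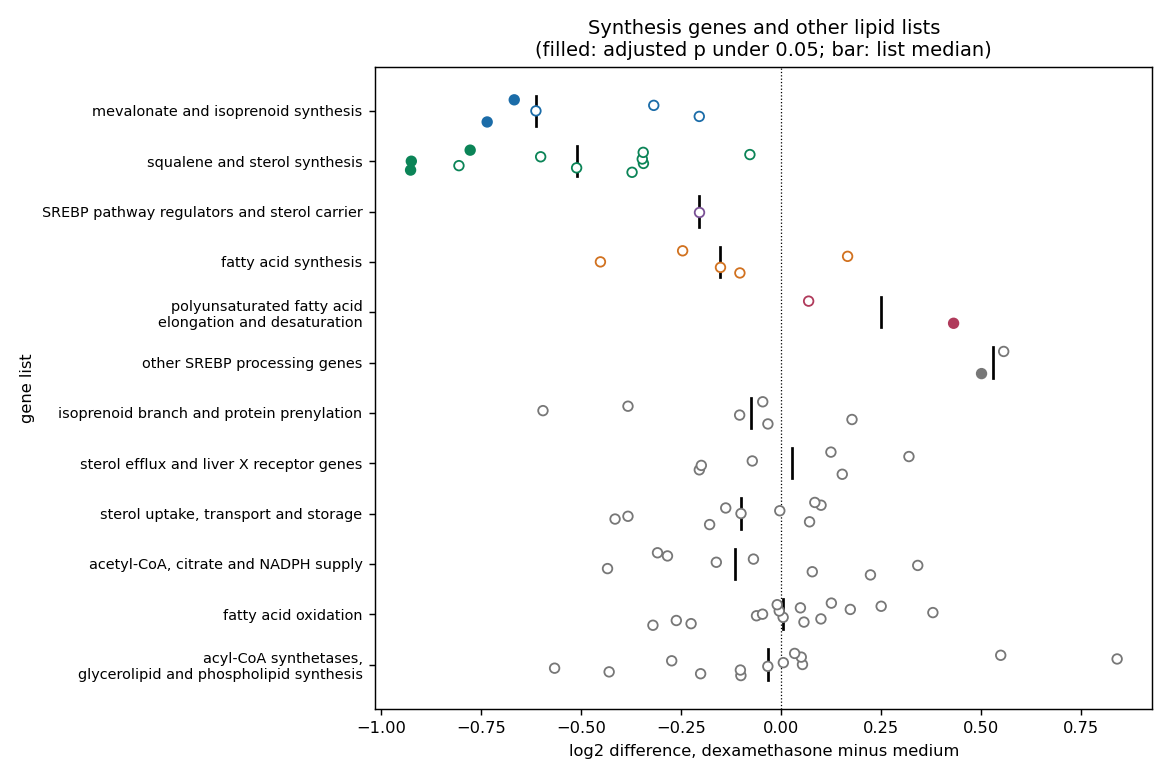
Log2 difference, dexamethasone minus medium, of each tested gene in the synthesis lists (coloured) and in other lipid lists (grey), 1 row a list, with the list median as a bar and filled points for adjusted p under 0.05. Medians of -0.61 and -0.51 for the mevalonate and sterol rows contrast with values between -0.12 and 0.03 in the 6 lowest rows.

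The size of the differences, and for some genes their sign, rests on how arrays are scaled. The deposited values share a trimmed mean, but the 9 hybridization control probe sets were 1.37-fold higher on the dexamethasone arrays. Scaling to them moved the median of all genes to -0.45 and the median of the 16 chain genes to -0.98, so the chain stayed lower than the typical gene by about as much. With that scaling 21 of the 24 tested members and 2469 of 5582 genes fell. In bulk RNA, fewer transcripts per cell and fewer cells that express a gene cannot be told apart.

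**Figure D5:**
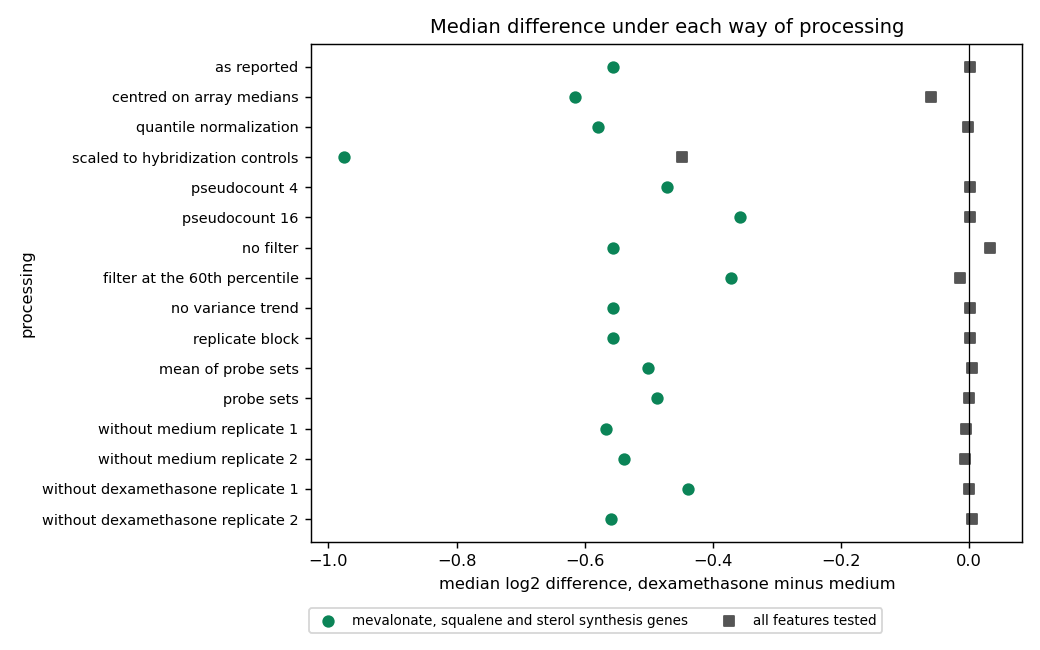
Median log2 difference, dexamethasone minus medium, of the mevalonate, squalene and sterol synthesis genes (green circles) and of all features tested (grey squares) under each way of processing. The green points lie between -0.98 and -0.36 and left of the grey ones in every row, and both shift left with scaling to the hybridization controls.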

How the data were processed

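The deposited values are intensities per probe set on a linear scale, made by the authors with MAS5 per the submitters' processing notes, version and settings not given in the sources used here. Their trimmed mean (2% cut from each end) lay between 100.06 and 100.07 on every array. The table held 0 columns of other samples. Of the probe sets, 66 were controls, 10833 named 1 gene, 396 several and 1193 none. Reference symbols came from assembly GRCm38.p6, matched by gene ID for 10817, with 0 renamed.

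Signals were used as log2(signal + 1). The brightest probe set stood for a gene, and genes whose mean log2 signal did not exceed the 40th percentile of all probe sets were left out. Dexamethasone was compared with medium on all 4 arrays by a two-sided test with lmFit and eBayes with a variance trend (limma 3.58.1, R 4.3.3). The fit was tested on simulated data. Members and lists were chosen with earlier results of these data known. Named genes are all measured members and, of each other list, those that passed or else the 2 with the largest difference. Erlin1, Cd79b, Cd4 and Cd8a were named after their values were seen. The alternatives were other scalings, pseudocounts (4 and 16), filters, a replicate block, no variance trend, other uses of probe sets and leaving out each array. The number of arrays limits the precision. Whether extracts came from separate cultures is not given in the sources used here.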

Additional observations from a re-analysis of the deposited data

How the results depend on the processing

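The tested cholesterol chain genes (11 with the stricter filter, 16 or their probe sets otherwise) had a median below that of all features in all 15 alternatives, between -0.98 and -0.36. All tested chain genes stayed lower in each, except Ebp, which was at 0.048 without medium replicate 2 and at 0.0086 without dexamethasone replicate 1. The count of synthesis genes called lower was 5 with the reported processing. This count was 5 or 6 in 8 alternatives, with Scd2 in place of Fdps under the mean of probe sets. Scaled to the hybridization controls it was 21, and it was 3 with no filter, and 0 without the variance trend in limma, where 13 of 24 were lower at an unadjusted p under 0.05, beside 9.05% of all genes. It ranged from 0 to 2 with an array left out, which leaves 1 sample in a group whose spread is taken to equal that of the other group. Over all genes, the 218 calls became 2512 with scaling to the hybridization controls, 116 with no filter, 19 without the trend, 353 with the replicate block and 32 to 78 with an array left out. Rises and falls were 105 and 113, against 92 and 162 with arrays centred on their medians, 43 and 2469 with scaling to the hybridization controls, and 17 and 2 without the trend. The cause of these shifts was not tested. The replicate block left the same 5 lower calls. Same-numbered arrays of the groups showed a correlation of deviations of 0.09, and the titles share only a number.

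Scaling to the hybridization controls turned the sign of Elovl5 (-0.025), Fads1 (-0.38), Scd1 (-0.25), Lpcat3 (-0.13), Pgd (-0.11), Eci1 (-0.045), Satb1 (-0.031), Blk (-0.011), Ms4a1 (-0.062), Csf1r (-0.11), Hba-a1 (-0.30) and Tfrc (-0.40). Leaving out an array gave ranges across 0 for Ebp (-0.20 to 0.048), Acly (-0.43 to 0.22), Scd1 (-0.095 to 0.43), Eci1 (-0.038 to 0.80), Cd14 (-0.78 to 0.033), Csf1r (-0.21 to 0.84) and Tfrc (-0.12 to 0.23). Centring on medians turned Tfrc (-0.0041). Of 352 member values under the alternatives, 298 kept direction and side of the threshold, 29 lost a call, 17 gained one and 8 changed sign. Signals near 14 limit Hsd17b7, Scd1, Sc5d, Elovl6 and Insig1.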
